A study of Mus musculus with 6 samples.

Results

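The genes described are 40 mouse genes of glucose uptake, glycolysis, lactate handling and the response to low oxygen, called members here. They were chosen by name from these known pathways, with earlier results of these data known. All 40 have a row among the 47593 gene rows of the deposited table. Total RNA was sequenced from femur bone marrow cells of mice that had been selected for c-Kit, the receptor for stem cell factor on early blood cells. In both groups the cells carried MLL-AF9, a leukaemia fusion of the histone methyltransferase MLL and AF9, from a murine stem cell virus vector with neomycin resistance, were selected with G418 and were passaged serially in methylcellulose with cytokines. The E531R group has the fusion whose AF9 portion carries the substitution E531R (3 libraries), and the WT group has the unchanged fusion (3 libraries). The comparison addressed which transcripts differ when AF9 no longer binds the corepressor BCOR, which is the subject the series title names. The sources used here give no mouse strain, age or sex, and leave unstated if each replicate is a culture or animal of its own. The p-values therefore reflect the variation among these 6 libraries, whose origin may be purely technical. Beside the fusion from the virus, all cells keep the mouse's own Mll and Af9 genes.

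Glycolysis splits glucose into pyruvate in the cytosol, and much of that pyruvate becomes lactate in fast-growing and in myeloid cells. Its flux is set mainly at glucose uptake, at the hexokinases, at phosphofructokinase with its activator fructose-2,6-bisphosphate, and at lactate export. Under low oxygen the prolyl hydroxylases encoded by the Egln genes lose activity, the transcription factor subunit HIF-1α is stabilised, and HIF raises transcription of many glycolytic genes and of its own regulators. Blood stem cells and neutrophils are known for a strong reliance on glycolysis.

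The libraries held between 14161139 and 33459668 reads assigned to genes, and values are normalised read counts, that is, reads divided by 1 size factor per library. By library, 1 read was worth between 0.695 and 1.60 units. WT replicate 3 stood apart: its log2 deviation from the WT mean had an SD of 0.40 over the tested genes, against 0.24 and 0.26 in WT replicates 1 and 2 and 0.13 to 0.15 in the E531R libraries. Across 12569 genes that deviation rose with transcript GC content (Pearson r = 0.56, a correlation across genes, which are not independent replicates). Counts and medians of members and of neighbouring pathways are therefore given with all 6 libraries and without WT replicate 3. So are most results of single members, while marker calls and named genes of neighbouring pathways are given for all 6 libraries only. Summed neutrophil markers ran from 67859 to 75397 in E531R libraries and from 6446 to 8718 in WT libraries, with 9 of 9 tested markers of 10 higher by limma. Macrophage and monocyte markers summed to 20355 to 21904 in E531R libraries and 5172 to 6003 in WT libraries, with 8 of 8 tested markers of 12 higher. The defining macrophage markers C1qa, C1qb and C1qc had means under 1, as did Retnlg of mature neutrophils. Markers of myeloid progenitors, Kit among them, summed to 319260 to 332138 in E531R libraries and 259309 to 320204 in WT libraries, with 3 of 7 higher and 1 lower. Megakaryocyte markers, at 382 to 417 in E531R libraries and 84.6 to 120 in WT libraries, had 2 of 2 tested markers of 5 higher. Stromal and endothelial markers, at 1424 to 1537 in E531R libraries and 5457 to 6295 in WT libraries, had 1 of 2 tested markers of 5 lower. Cdh5 and Kdr had means under 1 and Cxcl12 was at 0, so almost all of that sum came from Pecam1 and Col1a1. Mast cell and basophil markers summed to 151 to 177 in E531R libraries and 168 to 266 in WT libraries, with 1 of 2 tested markers of 4 lower and Fcer1a at 0. Erythroid markers, with Hba-a1 and Hbb-bs at 0, summed to 13.2 to 20.4 in E531R libraries and 16.1 to 26.0 in WT libraries, and the 1 tested of 6 was not called. B cell markers, with Ebf1 at 0, summed to 5.56 to 9.73 in E531R libraries and 1.60 to 3.44 in WT libraries, and T cell markers, with Cd3e and Cd4 at 0, to at most 3.44 in any library, with 0 tested. The part of these cell types in the results was not tested, and in bulk RNA fewer cells of a type and less RNA per cell cannot be told apart.

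In E531R cells 5 members rose and 3 fell with all 6 libraries. The glucose transporter gene Slc2a3, the fructose-2,6-bisphosphate enzyme gene Pfkfb4, the mitophagy receptor genes Bnip3 and Bnip3l and the mTORC1 inhibitor gene Ddit4 were higher. The oxygen sensor gene Egln3, the muscle-type phosphofructokinase gene Pfkm and the lactate transporter gene Slc16a1 were lower. The test was limma on log2(value + 1) over the 12991 genes with a mean of at least 10, with Benjamini-Hochberg adjustment over all of them and a threshold of 0.05, and 37 of the 40 members reached that mean. The 8 called members are 21.6% of the 37 tested, against 19.9% of all tested genes (10.4% higher and 9.53% lower), a share near the background. The median log2 fold change of the tested members was 0.094, against 0.010 over all tested genes. The groups did not overlap in 13 of the 37 members, against 44.0% of all tested genes: in 7 the E531R libraries were all above (21.2% of genes) and in 6 all below (22.8% of genes). On the recovered reads edgeR's quasi-likelihood test called the same 5 members higher (10.7% of all genes) and 4 lower (9.63%), together 24.3% of the members against 20.4% of genes. DESeq2 also called 5 higher (10.6% of genes) and 4 lower (9.5%), against 20.1% of genes. The fourth lower gene in both was Hk1.

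Without WT replicate 3 the picture of the enzymes changed: 19 of the 37 members were higher and 5 lower, which is 64.9% of them, against 47.4% of all tested genes. The WT group of this fit is WT replicates 1 and 2 only, since the WT library with the largest deviation was left out. The SEs and adjusted p-values of this fit, here and below, therefore do not include the spread of that library. Higher calls made up 51.4% of the members and 24.3% of all genes, while lower calls made up 13.5% of the members and 23.1% of all genes. The median log2 fold change of the members was then 0.17, against -0.0075 over all genes. All 8 members called with 6 libraries were among the 24. The groups then did not overlap in 30 of the 37 members, against 64.3% of all tested genes: in 23 the E531R libraries were all above (32.1% of genes) and in 7 all below (32.2%).

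**Figure D1:**
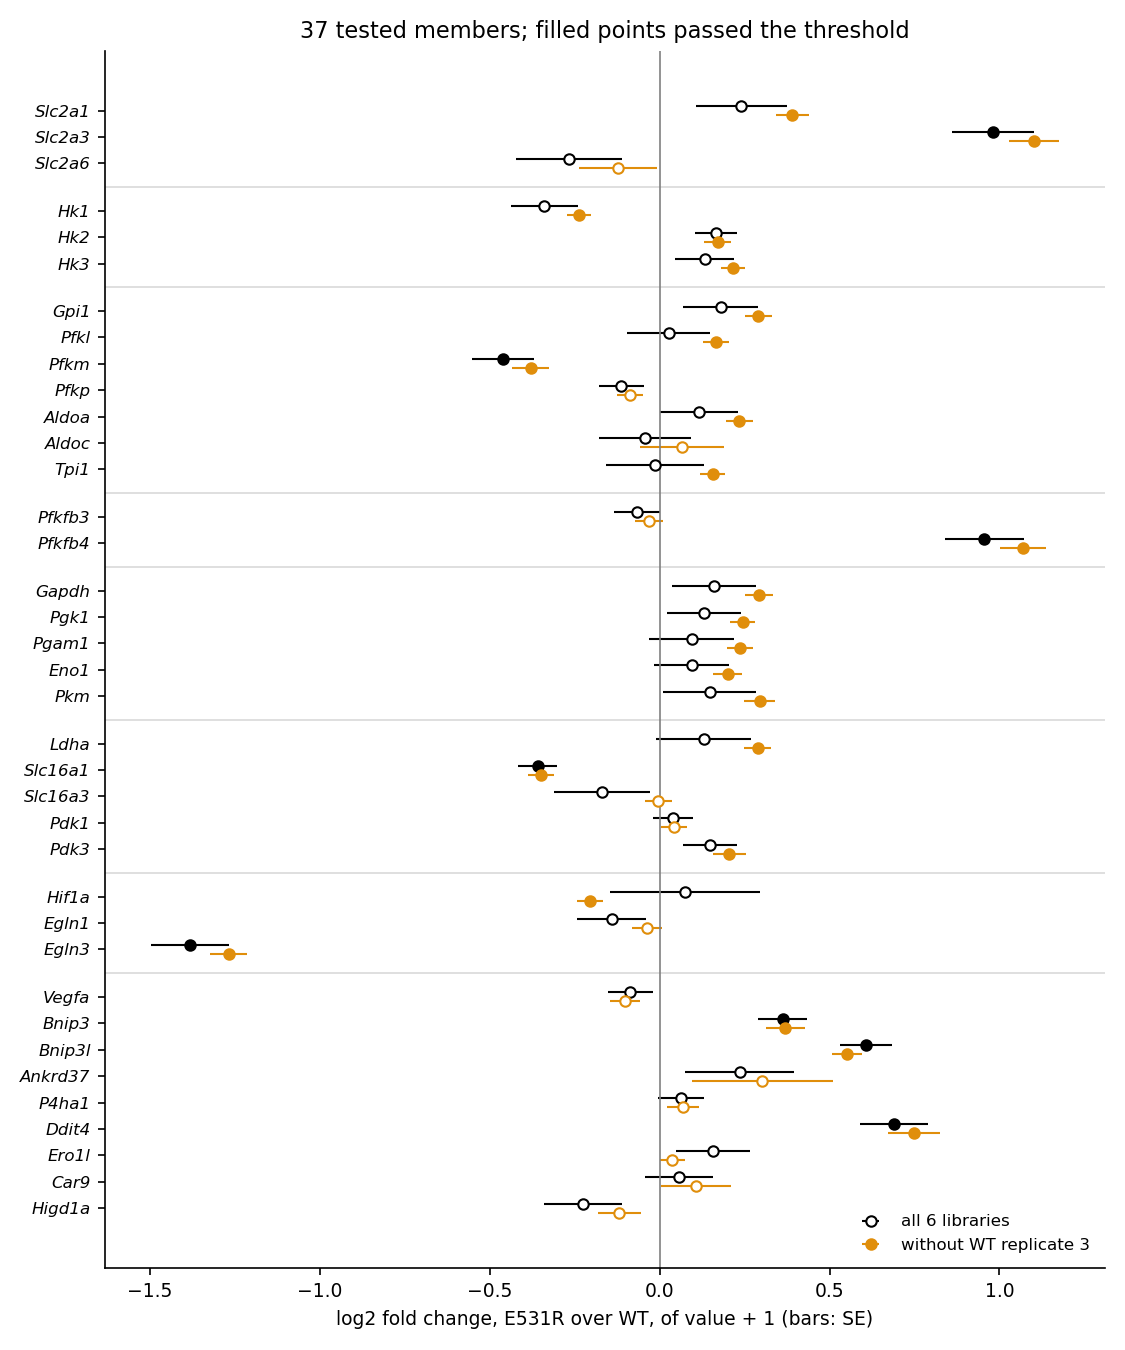
The x axis gives the log2 fold change, E531R over WT, on the log2(value + 1) scale (bars show 1 SE), for the 37 tested members, in the order of their roles from glucose transport at the top to hypoxia targets at the bottom. Black points use all 6 libraries and orange points leave out WT replicate 3, and filled points passed the limma threshold. Egln3 lies farthest to the left at -1.38 and Slc2a3 farthest to the right at 0.98, and Gapdh, Pgk1, Pgam1, Eno1, Pkm and Ldha lie right of 0 and are filled only without WT replicate 3.

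The values by library that follow are normalised read counts in the order of replicates 1, 2 and 3. Among the glucose transporters, Slc2a3 encodes the high-affinity transporter GLUT3. It had 548, 521 and 502 in E531R replicates 1, 2 and 3, against 244, 242 and 313 in WT replicates 1, 2 and 3. The E531R libraries all lay above the WT libraries, with WT replicate 3 the highest of the WT values. The rise was 1.96-fold (log2 fold change 0.98, SE 0.12, limma adjusted p = 0.00154; without WT replicate 3 log2 fold change 1.10, SE 0.074, limma adjusted p = 3.22e-09). Slc2a1, the gene of the widely expressed transporter GLUT1, had 2491, 2354 and 2449 in E531R libraries and 1947, 1765 and 2537 in WT libraries. Its E531R values lay above WT replicates 1 and 2, and WT replicate 3 lay above all of them. It did not pass with all libraries (log2 fold change 0.24, SE 0.13, limma adjusted p = 0.27) and passed without WT replicate 3 (log2 fold change 0.39, SE 0.047, limma adjusted p = 3.59e-06). Slc2a6, the gene of the lysosomal transporter GLUT6, averaged 169 ± 14.9 in E531R cells and 205 ± 38.9 in WT cells (SD, n = 3 each) and passed in neither fit (limma adjusted p = 0.289 and 0.406). Per kilobase of exon the order of levels was Slc2a1, Slc2a3, Slc2a6 in E531R cells, at 693, 72.3 and 52.5 normalised reads, and Slc2a1, Slc2a6, Slc2a3 in WT cells, at 594, 63.8 and 36.8. As a share of the 3 transporters on that scale, Slc2a3 made up 8.96, 9.07 and 8.47% in E531R libraries and 5.19, 5.66 and 5.12% in WT libraries. Exon length, here and below, is the union of all annotated exons of a gene, 7245 bases for Slc2a3 and 3211 for Slc2a6. Orders and shares between genes depend on it. Before division by length Slc2a3 lay above Slc2a6 in both groups, with means of 524 in E531R cells and 267 in WT cells.

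The hexokinases trap glucose as glucose-6-phosphate, and 0 of the 3 passed with all 6 libraries, though Hk1 was close to the threshold. Hk1, the housekeeping form, had 6955, 6935 and 6878 in E531R libraries and 8261, 8062 and 10085 in WT libraries. All E531R values lay below all WT values, and WT replicate 3 was the highest. With limma its adjusted p was 0.0531 (log2 fold change -0.34, SE 0.098). The call was made without WT replicate 3 (log2 fold change -0.24, SE 0.035, limma adjusted p = 2.90e-05), with edgeR's quasi-likelihood test on the recovered reads (adjusted p = 0.0496) and with DESeq2 on them (adjusted p = 0.0228), while the authors' deposited table gives 0.0476. Hk2, the form that HIF and insulin raise, had 4409, 4545 and 4267 in E531R libraries and 4005, 3824 and 3957 in WT libraries. Its groups did not overlap, and it passed without WT replicate 3 only (log2 fold change 0.17, SE 0.04, limma adjusted p = 0.00207; all libraries adjusted p = 0.117). Hk3, the hexokinase of myeloid cells, had 11816, 11765 and 11859.7 in E531R libraries and 10347, 10012 and 12083 in WT libraries. It likewise passed without WT replicate 3 (log2 fold change 0.21, SE 0.035, limma adjusted p = 8.97e-05) and not with all libraries (limma adjusted p = 0.346). Hk3 was the most abundant of the family per kilobase of exon, with a share of 67.4, 67.0 and 67.9% in E531R libraries and 63.2, 63.2 and 64.0% in WT libraries. The share of Hk1 was 17.1, 17.0 and 17.0% in E531R libraries and 21.8, 21.9 and 23.1% in WT libraries, so the groups did not overlap on this measure, which does not depend on the scaling of the libraries.

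**Figure D2:**
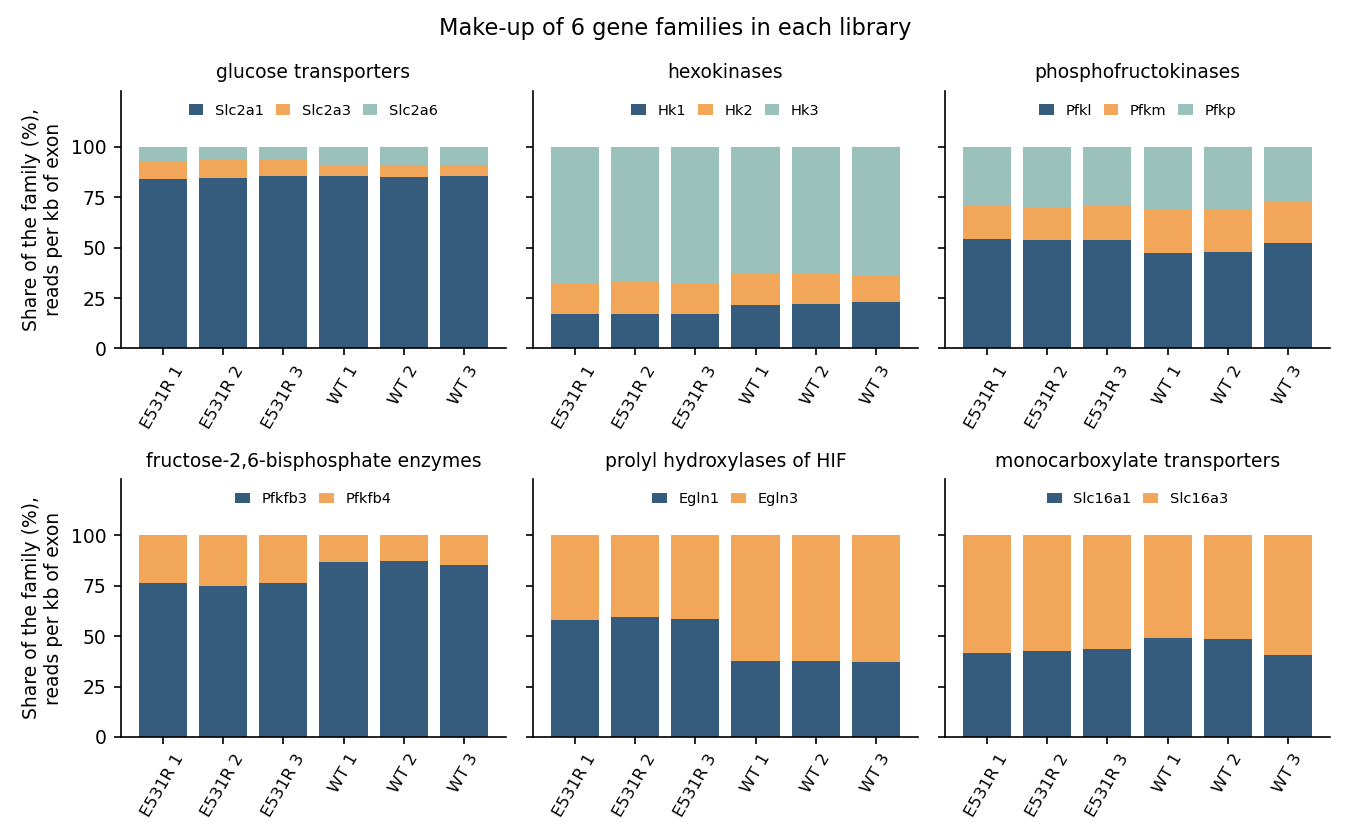
Share of each member in its gene family (y axis, percent of the family's normalised reads per kilobase of exon) in each of the 6 libraries (x axis), E531R libraries left of WT libraries, 1 colour per gene. In E531R libraries Egln1 takes more of the prolyl hydroxylases than Egln3, while in WT libraries Egln3 takes more than Egln1, and the orange part of Pfkfb4 is 23.8, 24.9 and 23.6% in E531R libraries and 13.0, 12.7 and 14.8% in WT libraries.

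Pfkfb4 makes and degrades fructose-2,6-bisphosphate, the activator of phosphofructokinase. It had 672, 683 and 652 in E531R libraries and 332, 305 and 403 in WT libraries. Every E531R library was above every WT library, a 1.93-fold difference of the means (log2 fold change 0.96, SE 0.12, limma adjusted p = 0.00135; without WT replicate 3 log2 fold change 1.07, SE 0.068, limma adjusted p = 1.40e-09). Its relative Pfkfb3, the strongly kinase-biased form, had 3339.7, 3194 and 3269 in E531R libraries and 3434, 3246 and 3599.5 in WT libraries. Those groups overlapped, and Pfkfb3 passed in neither fit (limma adjusted p = 0.528 and 0.557). Among the phosphofructokinase subunits themselves, Pfkm of muscle type had 807, 757 and 789 in E531R libraries and 1041, 1001 and 1209 in WT libraries. The E531R values all lay below the WT values (log2 fold change -0.46, SE 0.091, limma adjusted p = 0.0126; without WT replicate 3 log2 fold change -0.38, SE 0.054, limma adjusted p = 2.02e-05). Pfkm missed the threshold in each fit that left out an E531R library (replicates 1, 2 and 3 in turn, limma adjusted p = 0.054, 0.0707 and 0.0591). Pfkm also overlaps Senp1 on the opposite strand, and whether the counting used strand is not stated, so reads of the overlap may be counted to either. Senp1 averaged 2162 in E531R libraries and 2087 in WT libraries. The liver type Pfkl had 5333, 5142 and 5012 in E531R libraries and 4658, 4544 and 6141 in WT libraries. Its direction depended on the libraries and the scaling: it passed as higher without WT replicate 3 (log2 fold change 0.17, SE 0.038, limma adjusted p = 0.0019) and was near 0 with all libraries (log2 fold change 0.027, SE 0.12, limma adjusted p = 0.896). With upper-quartile rescaling its log2 fold change was -0.013. The platelet type Pfkp averaged 5698 ± 204 in E531R cells and 6160.4 ± 209 in WT cells (SD, n = 3 each) and passed in neither fit (limma adjusted p = 0.288 and 0.0795), although its groups did not overlap. Pfkp overlaps Pitrm1 on the opposite strand, which averaged 3084 in E531R libraries and 3934 in WT libraries, so reads may likewise be shared. Pfkm made up 16.4, 15.8 and 16.9% of the subunits' normalised reads per kilobase of exon in E531R libraries and 21.2, 21.0 and 20.6% in WT libraries. The exon lengths used were 3340 bases for Pfkm, 6675 for Pfkl and 13401 for Pfkp, so the size of these shares depends on the annotation.

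Among the remaining enzymes of glycolysis, Gpi1, Aldoa, Tpi1, Gapdh, Pgk1, Pgam1, Eno1, Pkm and Ldha share 1 pattern: the 3 E531R libraries lay close together, WT replicates 1 and 2 lay below them, and WT replicate 3 lay above them. With all 6 libraries 0 of these 9 passed (limma adjusted p between 0.312 for Gpi1 and 0.958 for Tpi1), and all 9 passed as higher without WT replicate 3. Gpi1, glucose-6-phosphate isomerase, had 39068, 38153 and 39594 in E531R libraries and 32506, 31192 and 40102 in WT libraries. Its log2 fold change without WT replicate 3 was 0.29 (SE 0.04, limma adjusted p = 1.51e-05). Aldoa, the main aldolase, had 36497, 35736 and 36952 in E531R libraries and 31407, 30453 and 39614 in WT libraries. Tpi1, which interconverts the triose phosphates, had 15553, 15189 and 15817 in E531R libraries and 14011, 13846 and 19817 in WT libraries. Its log2 fold change was -0.014 with all libraries and 0.16 without WT replicate 3, so its direction turned with that library. Aldoc, the brain-type aldolase, averaged 125 ± 5.17 in E531R cells and 130.0 ± 18.7 in WT cells (SD, n = 3 each), with overlapping groups and no call (limma adjusted p = 0.846 and 0.698).

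Gapdh, which oxidises glyceraldehyde-3-phosphate, had 21196, 20801 and 21804 in E531R libraries and 17994, 16735 and 22928 in WT libraries. It is often used as a loading control, and without WT replicate 3 its log2 fold change of 0.29 lay at the upper end of the range of these 9 enzymes, whose lowest was 0.16 for Tpi1. Pgk1, which makes the first ATP of the pathway, had 18097, 18510.5 and 18914 in E531R libraries and 15665, 15574 and 19808 in WT libraries. Pgam1, phosphoglycerate mutase, had 13767, 12974 and 13354 in E531R libraries and 11533, 11166 and 15225 in WT libraries. Both followed the shared pattern, with log2 fold changes without WT replicate 3 of 0.24 for Pgk1 and 0.24 for Pgam1. Eno1, the enolase outside nerve and muscle, had 71117, 68555 and 71352 in E531R libraries and 62032, 60418 and 76209 in WT libraries. Pkm, pyruvate kinase, had 68849, 65580.3 and 70873 in E531R libraries and 57113, 54466 and 75726 in WT libraries. These enolase and pyruvate kinase genes were the most abundant members per kilobase of exon, at 13077 and 13684 normalised reads in E531R cells and 12311 and 12484 in WT cells, followed by Ldha at 12171 in E531R cells and 11260 in WT cells. The limma adjusted p without WT replicate 3 was 0.00108 for Eno1 and 5.97e-05 for Pkm.

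Several of these genes have processed copies in the genome, and the handling of reads that match more than 1 place is not stated. Copies with a row of their own carried few reads: Eno1b, a retrogene of Eno1, averaged 185 in E531R libraries and 202 in WT libraries, and the pseudogene Pgam1-ps2 averaged 52.3 in E531R libraries and 68.7 in WT libraries. Eno2, the neuronal enolase, was not detectable at this depth as a difference, with 1 read over the E531R libraries and 3 over the WT libraries. By library its normalised read count was 0.695, 0 and 0 in E531R libraries and 0, 2.30 and 0.787 in WT libraries. The 18 genes of hexokinases, the other glycolytic enzymes and lactate dehydrogenases took 1.54%, 1.52% and 1.54% of assigned reads in E531R replicates 1, 2 and 3, against 1.37%, 1.33% and 1.64% in WT replicates 1, 2 and 3. On this measure the WT libraries lay on both sides of the E531R libraries.

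**Figure D3:**
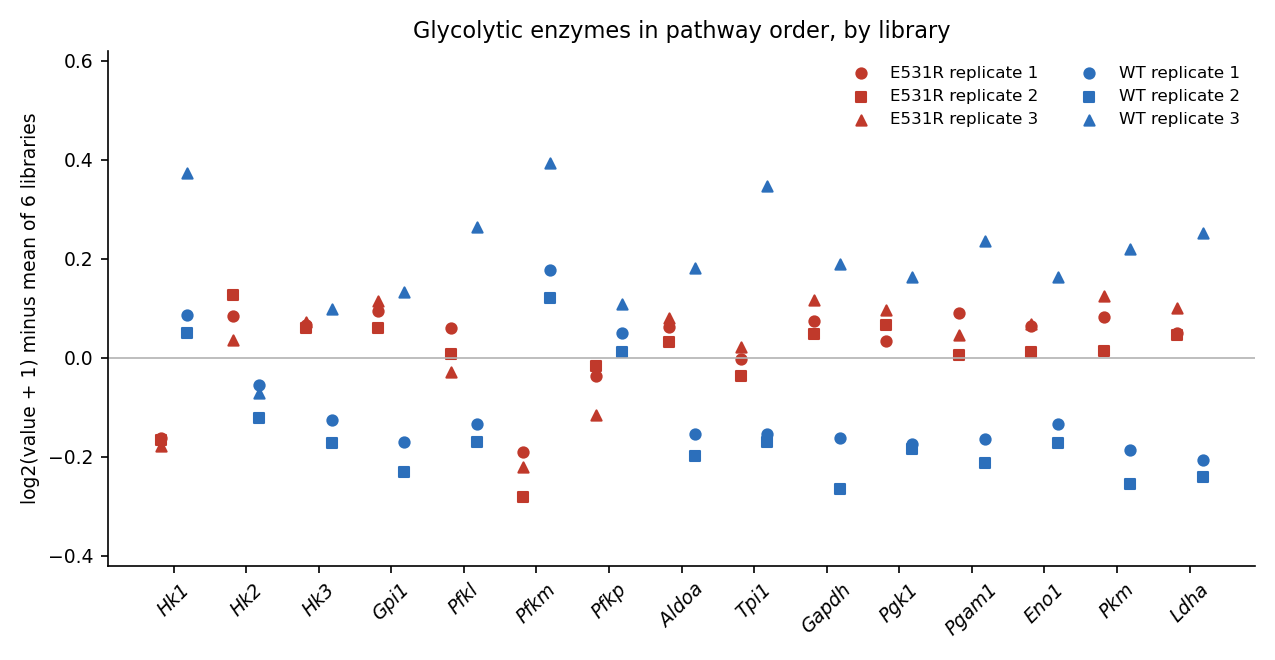
Log2(value + 1) of 15 glycolytic enzyme genes in pathway order (x axis), each given as the difference from its mean over the 6 libraries (y axis), with 1 point per library (red E531R, blue WT; circle, square and triangle for replicates 1, 2 and 3). From Hk3 to Ldha the blue triangle of WT replicate 3 lies apart from the other WT points in most genes. For Ldha the E531R libraries had 39847, 39733 and 41277 normalised reads, against 45857 in WT replicate 3.

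Transcript GC content moved with this pattern. WT replicate 3 was the highest of the 6 libraries in 23 of the 37 tested members, against 37.3% of all tested genes, and the lowest in 3, against 30.4% of all tested genes. Its median log2 difference from WT replicates 1 and 2 was 0.32 over the members and 0.077 over all tested genes. The members' median transcript GC content was 51.9%, against 49.5% for all tested genes, and ran from 41.3% to 58.2%. Of the 26 members with at least 50% GC, 25 lay in WT replicate 3 above the log2 mean of WT replicates 1 and 2. The same held for 8 of the 11 members below 50% GC. The matching shares of all tested genes were not computed. On these counts GC content and a WT replicate 3 that is high in the members generally cannot be told apart. Across the tested members the Pearson r of this difference with GC content was 0.73, against 0.56 across all tested genes (genes are not independent replicates). WT replicate 3 was the highest of the 3 WT libraries in 30 of the 37 tested members, against 50.7% of all tested genes. Hif1a, with the lowest GC content of the members, was the tested member farthest below the other WT libraries there. The part of GC content in the calls was not tested beyond the fits given here. After removal of a trend with GC content and transcript length from each library, 7 members were higher (15.7% of genes) and 4 lower (15.7% of genes), 29.7% of them, against 31.5% of all genes. Slc2a1, Hk3 and Aldoa were then called higher (adjusted p = 0.0195, 0.0053 and 0.02) and Hk1 lower (limma adjusted p = 0.00861), while Bnip3 was no longer called. The enzymes Gpi1, Gapdh, Pgk1, Pgam1, Eno1, Pkm and Ldha stayed above 0 without passing, at log2 fold changes between 0.12 for Pgam1 and 0.22 for Pkm.

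**Figure D4:**
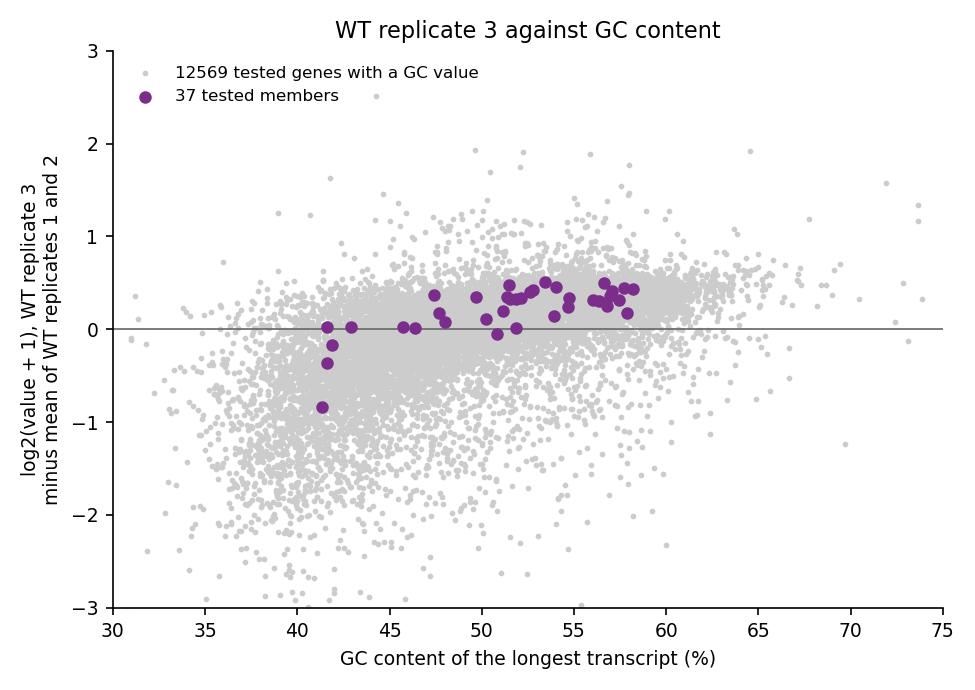
Difference of log2(value + 1) between WT replicate 3 and the mean of WT replicates 1 and 2 (y axis) against the GC content of the longest transcript in percent (x axis) for the tested genes with a GC value (grey; 29 of 12569 lie outside the axes) and the 37 tested members (purple). Most purple points above 50% GC lie above 0, and Hif1a, at 41.3% GC, lies at -0.84.

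For lactate, Slc16a1 encodes the monocarboxylate transporter MCT1. It had 2549, 2579.8 and 2585 in E531R libraries and 3280.4, 3272 and 3341 in WT libraries. The groups did not overlap, WT replicate 3 was not apart, and the fall was 1.28-fold (log2 fold change -0.36, SE 0.058, limma adjusted p = 0.00511; without WT replicate 3 log2 fold change -0.35, SE 0.037, limma adjusted p = 8.53e-07). Slc16a3, the gene of the lactate exporter MCT4, had 4285, 4156 and 3984 in E531R libraries and 4112, 4188 and 5857 in WT libraries. WT replicate 3 was high, the other WT libraries lay within the E531R range, and Slc16a3 passed in neither fit (limma adjusted p = 0.452 and 0.952). Ldha, the main lactate dehydrogenase subunit, had 39847, 39733 and 41277 in E531R libraries and 33352, 32601 and 45857 in WT libraries (without WT replicate 3 log2 fold change 0.29, SE 0.04, limma adjusted p = 1.43e-05). Ldhb, the subunit of heart type, was too low to be tested at the minimum of 10, with 37 reads over the E531R libraries and 4 over the WT libraries. By library its normalised read count was 9.73, 9.73 and 12.7 in E531R libraries and 1.60, 3.44 and 0 in WT libraries, without overlap. Corrected for the size factors the ratio was 7.33 (exact 95% interval 2.63 to 28.3, which covers counting error only). With no filter on low values limma called Ldhb higher (adjusted p = 0.0281), and the authors' deposited table gives an adjusted p of 0.0287.

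The pyruvate dehydrogenase kinases turn off pyruvate dehydrogenase, a mitochondrial enzyme that consumes pyruvate. Pdk1, a HIF target, averaged 2871 ± 59.1 in E531R cells and 2796 ± 30.1 in WT cells (SD, n = 3 each), and it passed in neither fit (limma adjusted p = 0.684 and 0.393). Pdk3 had 1473, 1396 and 1502 in E531R libraries and 1228, 1301 and 1423 in WT libraries. It passed as higher without WT replicate 3 (log2 fold change 0.20, SE 0.049, limma adjusted p = 0.00252) and not with all libraries (limma adjusted p = 0.254).

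Among the oxygen sensors, Egln3 encodes the prolyl hydroxylase PHD3, which marks HIF-α for degradation and is itself a HIF target. It showed the largest change among the 37 tested members, with 996, 867 and 911 in E531R libraries and 2239.6, 2211 and 2825 in WT libraries. Every E531R library was below every WT library, and the mean was 2.62-fold lower (log2 fold change -1.38, SE 0.11, limma adjusted p = 0.000245; without WT replicate 3 log2 fold change -1.27, SE 0.055, limma adjusted p = 1.07e-11). Egln1, the gene of the main oxygen sensor PHD2, averaged 1769.8 ± 68.8 in E531R cells and 1962 ± 256 in WT cells (SD, n = 3 each) and passed in neither fit (limma adjusted p = 0.388 and 0.533). Per kilobase of exon Egln3 made up 42.1, 40.4 and 41.5% of the pair in E531R libraries and 62.4, 62.3 and 62.8% in WT libraries, so the more abundant of these prolyl hydroxylase transcripts was Egln1 in E531R cells and Egln3 in WT cells. Hif1a, the oxygen-regulated HIF subunit, had 3882, 4117 and 4066 in E531R libraries and 4636, 4629 and 2595 in WT libraries. Its WT replicate 3 was low while the others were alike, and its direction turned with that library: the log2 fold change was 0.074 with all libraries (limma adjusted p = 0.837), while it fell by 0.20 on the log2 scale without WT replicate 3 (limma adjusted p = 0.000319). Regulation of HIF-1α acts mainly on the protein, which these data did not measure.

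Of the hypoxia targets, the mitophagy receptors encoded by Bnip3 and Bnip3l, known HIF targets, were both higher. Bnip3l, also called Nix, had 2011, 2069.9 and 2118 in E531R libraries and 1376, 1444 and 1254 in WT libraries. The groups were apart, with a 1.52-fold higher mean (log2 fold change 0.61, SE 0.076, limma adjusted p = 0.00162; without WT replicate 3 log2 fold change 0.55, SE 0.044, limma adjusted p = 2.61e-08). Bnip3 had 991, 1029 and 947 in E531R libraries and 793, 737 and 778 in WT libraries, again without overlap (log2 fold change 0.36, SE 0.072, limma adjusted p = 0.0131; without WT replicate 3 log2 fold change 0.37, SE 0.057, limma adjusted p = 4.61e-05). Bnip3 missed the threshold when E531R replicate 1 or replicate 2 was left out (limma adjusted p = 0.0769 and 0.084) and after removal of the trend with GC content and length, where its log2 fold change was 0.14 (limma adjusted p = 0.524). The GC content of its transcript is 41.6%. Ddit4, also called Redd1, restrains mTORC1 under hypoxia and other stresses. Its values were 641, 678 and 574 in E531R libraries and 362, 387 and 423 in WT libraries. All E531R libraries exceeded all WT libraries, by 1.62-fold in the mean (log2 fold change 0.69, SE 0.10, limma adjusted p = 0.00319; without WT replicate 3 log2 fold change 0.75, SE 0.076, limma adjusted p = 4.64e-07).

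P4ha2, a subunit of the prolyl hydroxylase that modifies collagen, had the largest ratio between groups of the 40 members, at very low counts, with 6 reads over the E531R libraries and 47 over the WT libraries. By library it had 2.08, 0.973 and 1.95 in E531R libraries and 19.2, 19.5 and 14.2 in WT libraries. Corrected for the size factors it was 9.89-fold lower in E531R cells (exact 95% interval 4.22 to 28.3, counting error only). Its mean of 9.64 lay just under the minimum of 10, and with no filter limma called it lower (adjusted p = 0.00141); the authors' deposited table gives an adjusted p of 9.47e-05. With no filter 6 members were higher (5.88% of genes with a read) and 4 lower (5.35%), together 10 members against 11.2% of those genes. The related P4ha1 averaged 1838 ± 93.6 in E531R cells and 1758 ± 18.7 in WT cells (SD, n = 3 each) and passed in neither fit (limma adjusted p = 0.556 and 0.245).

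The other hypoxia targets did not pass in either fit. Vegfa, the angiogenic growth factor gene, averaged 2164 ± 90.1 in E531R cells and 2296 ± 45.3 in WT cells (SD, n = 3 each), and its E531R libraries all lay below its WT libraries (log2 fold change -0.086, limma adjusted p = 0.409). Car9, the membrane carbonic anhydrase often used as a hypoxia marker, averaged 195 ± 8.17 in E531R cells and 188 ± 12.6 in WT cells, with overlapping groups (log2 fold change 0.058, limma adjusted p = 0.716). Ero1l, an oxidase of the endoplasmic reticulum, averaged 5494 ± 123 in E531R cells and 4961 ± 684 in WT cells, and its WT replicate 3 was low. Higd1a, a mitochondrial protein induced by hypoxia, averaged 827 ± 64.5 in E531R cells and 971 ± 129.9 in WT cells. Ankrd37, a HIF target of ankyrin repeat type, averaged 39.8 ± 2.92 in E531R cells and 33.7 ± 2.87 in WT cells; it overlaps Ufsp2 on the opposite strand, which averaged 1325 in E531R libraries and 1224 in WT libraries. For these last genes the limma adjusted p was 0.372 for Ero1l, 0.226 for Higd1a and 0.362 for Ankrd37 with all libraries, and 0.437, 0.135 and 0.252 without WT replicate 3. Among the tested hypoxia targets the calls were thus on the mitophagy genes and Ddit4, all higher, with none for Vegfa and Car9, while P4ha2, under the minimum mean, was called lower with no filter.

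**Figure D5:**
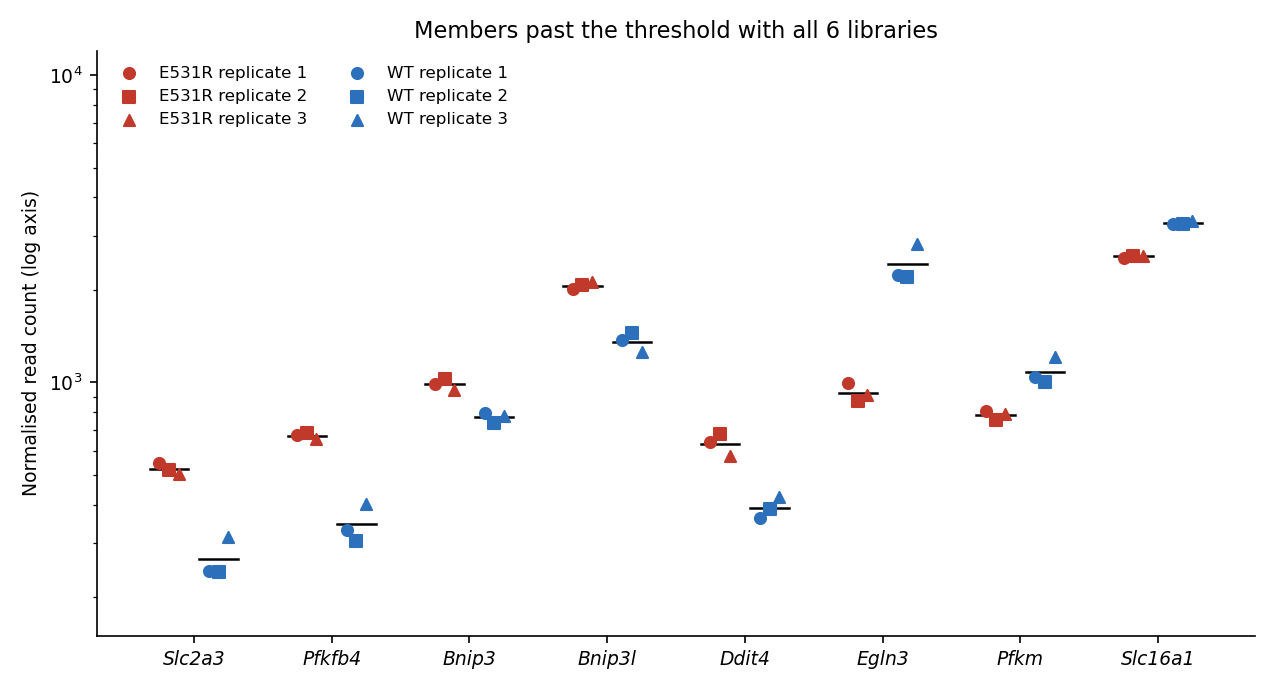
Normalised read count (log y axis) of the 8 members past the limma threshold with all 6 libraries, with 1 point per library (red E531R, left; blue WT, right; circle, square and triangle for replicates 1, 2 and 3) and a bar at the mean of each group. The groups are apart in all 8 genes; for Egln3 the E531R libraries lie between 867 and 996 and the WT libraries between 2211 and 2825.

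HIF complexes bind DNA at the core letters ACGTG or GCGTG, so the 250 bases before the RefSeq start sites (GRCm38.p6) were searched for both on both strands. Promoters were listed for 37 of the 40 members, 51 in all since some genes have several starts; Slc2a3, Bnip3l and Ero1l had no entry. ACGTG was found in 26 of the 51 (51.0%), in 21.7% of 11813 promoters of tested genes and in 16.6% of 32851 promoters of all genes. GCGTG was found in 29 of the 51 (56.9%), in 44.7% of promoters of tested genes and in 28.2% of all. Either core was found in 42 of the 51 (82.4%), in 55.9% of promoters of tested genes and in 38.6% of all. Both cores contain CG, and the median number of CG pairs was 14 in members' promoters, 15 in those of tested genes and 6 in all. Many members are named in the pathway because they are known HIF targets, so the share describes the choice of genes, and a match is not evidence of binding. ACGTG also lies inside CACGTG, the sequence that MYC and related factors bind, which was found in 6 of the 51 promoters, in 8.41% of those of tested genes and in 6.02% of all.

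The promoters printed here are those of the called members with a single listed start and that of P4ha2, so that genes that rose and genes that fell can be compared letter by letter. Capitals mark ACGTG and GCGTG and their reverse complements CACGT and CACGC. Each runs 5′ to 3′ along the gene's strand and ends at the base before the start site.
Pfkfb4, higher (chr9:108991652-108991901, strand +): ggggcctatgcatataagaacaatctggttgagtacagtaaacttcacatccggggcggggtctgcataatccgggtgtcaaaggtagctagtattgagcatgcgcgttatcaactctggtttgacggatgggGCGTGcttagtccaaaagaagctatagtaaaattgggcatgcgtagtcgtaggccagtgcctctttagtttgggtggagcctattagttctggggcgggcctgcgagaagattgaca
Bnip3, higher (chr7:138909507-138909756, strand -): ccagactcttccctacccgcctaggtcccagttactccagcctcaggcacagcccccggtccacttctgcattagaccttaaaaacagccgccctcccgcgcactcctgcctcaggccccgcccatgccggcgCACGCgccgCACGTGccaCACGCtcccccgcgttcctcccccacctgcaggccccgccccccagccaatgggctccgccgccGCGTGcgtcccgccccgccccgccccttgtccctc
Ddit4, higher (chr10:59951771-59952020, strand -): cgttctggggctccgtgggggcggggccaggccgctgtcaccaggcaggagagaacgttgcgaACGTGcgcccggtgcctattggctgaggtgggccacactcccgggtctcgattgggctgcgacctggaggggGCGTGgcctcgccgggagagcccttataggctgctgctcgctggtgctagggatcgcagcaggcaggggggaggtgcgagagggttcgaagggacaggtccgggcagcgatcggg
Egln3, lower (chr12:54203875-54204124, strand -): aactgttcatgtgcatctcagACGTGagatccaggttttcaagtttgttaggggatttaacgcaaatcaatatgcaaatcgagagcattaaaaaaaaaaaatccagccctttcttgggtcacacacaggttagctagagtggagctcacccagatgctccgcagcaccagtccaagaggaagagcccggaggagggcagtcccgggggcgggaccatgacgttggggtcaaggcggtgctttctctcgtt
Slc16a1, lower (chr3:104638414-104638663, strand +): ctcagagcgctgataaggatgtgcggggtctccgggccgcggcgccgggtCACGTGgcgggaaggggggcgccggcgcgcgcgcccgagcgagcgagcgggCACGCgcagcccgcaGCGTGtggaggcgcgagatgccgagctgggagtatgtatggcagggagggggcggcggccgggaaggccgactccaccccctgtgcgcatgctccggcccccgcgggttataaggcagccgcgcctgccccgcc
P4ha2, lower with no filter (chr11:54100674-54100923, strand +): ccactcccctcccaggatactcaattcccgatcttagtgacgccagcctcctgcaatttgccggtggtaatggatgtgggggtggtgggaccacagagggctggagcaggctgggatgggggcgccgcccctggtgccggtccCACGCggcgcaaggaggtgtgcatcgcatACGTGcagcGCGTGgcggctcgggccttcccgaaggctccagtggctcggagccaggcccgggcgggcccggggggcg

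All 6 of these windows hold at least 1 of the cores, in genes that rose and in genes that fell, as do 55.9% of the promoters of tested genes. Pfkfb4 has 1 match, a GCGTG, and Egln3 has 1, an ACGTG. In Bnip3 and Slc16a1 1 of the matched stretches is a full CACGTG, read as ACGTG on both strands.

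Neighbouring pathways, from lists chosen with earlier results of these data known, are given by their counts, against 10.4% higher and 9.53% lower over all tested genes with all libraries and 24.3% higher and 23.1% lower without WT replicate 3, and by their median log2 fold change, against 0.010 with all libraries and -0.0075 without WT replicate 3. In the pentose phosphate pathway, which makes NADPH and ribose from glucose-6-phosphate, 2 of 11 tested genes rose and 0 fell, with a median of 0.068. These were the NADPH-forming dehydrogenases G6pdx (11073 ± 565 in E531R cells and 8180.2 ± 1289 in WT cells; log2 fold change 0.45, limma adjusted p = 0.0392) and Pgd (18211 ± 486 in E531R cells and 13663 ± 2196 in WT cells; log2 fold change 0.43, limma adjusted p = 0.0457; SD, n = 3 each). When WT replicate 3 was left out, 6 rose and 1 fell (24.3% and 23.1% of all genes in that fit), with a median of 0.20. Among genes of pyruvate entry into mitochondria and of its use there, 2 of 12 rose and 1 fell, with a median of -0.019. Mpc2, a subunit of the pyruvate carrier, rose (1367 ± 24.6 in E531R cells and 704 ± 88.8 in WT cells; log2 fold change 0.96), as did the phosphatase gene Pdp1, which reactivates pyruvate dehydrogenase (log2 fold change 0.70), while Pdhb, a subunit of that enzyme, fell by 0.36 on the log2 scale (limma adjusted p = 0.000673, 0.00835 and 0.044). There were 3 of 12 higher and 5 lower in the 5 libraries without WT replicate 3, against 24.3% and 23.1% of all genes, with a median of -0.021.

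Glycogen genes had 3 of 13 higher and 2 lower, with a median of 0.27. Among them, the glycogen phosphorylase gene Pygl and the kinase subunit gene Phka2 rose, with log2 fold changes of 0.50 and 0.31, and the branching enzyme Gbe1 and the lysosomal glucosidase Gaa fell, with -0.52 and -0.51 (limma adjusted p = 0.00288, 0.0197, 0.00191 and 0.0372). Leaving out WT replicate 3 gave 8 higher (24.3% of all genes) and 3 lower (23.1% of all genes), with a median of 0.20. Of 19 further genes of glucose transport and glycolysis, the urate and sugar transporter gene Slc2a9 rose (log2 fold change 0.52, limma adjusted p = 0.00453). Gpd1, which turns a glycolytic intermediate into glycerol-3-phosphate, fell to 6.40 ± 2.08 in E531R cells, against 120.0 ± 25.4 in WT cells (log2 fold change -4.05, limma adjusted p = 8.66e-05; SD, n = 3 each), and Galm, which converts galactose anomers, fell with a log2 fold change of -1.46 (limma adjusted p = 0.000525). The median of these 19 was 0.11, and in the fit with WT replicate 3 left out this list had 6 higher and 3 lower, against 24.3% and 23.1% of all genes, with a median of 0.12.

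Of 11 tested HIF regulators 1 rose and 0 fell, namely Cited2, which competes with HIF for its coactivators (log2 fold change 0.35, limma adjusted p = 0.013). The median was 0.080 with all libraries. With WT replicate 3 left out, 5 rose and 0 fell, against 24.3% and 23.1% of all genes, with a median of 0.14. Other genes induced by hypoxia had 7 of 26 higher and 3 lower. The higher ones were Hmox1, Bhlhe40, Ccng2, Plin2, Car12, Mxi1 and Ak4, with log2 fold changes from 0.30 for Ak4 to 1.39 for Hmox1 and limma adjusted p between 6.79e-05 for Bhlhe40 and 0.038 for Ak4. The lower ones were Vldlr, Stc2 and Plod1, with -3.00, -0.62 and -0.44 (limma adjusted p = 0.00182, 0.00118 and 0.0491). In the fit that left out WT replicate 3, 13 were higher and 4 lower, against 24.3% and 23.1% of all genes. The list's median was 0.27 with all libraries and 0.12 without WT replicate 3.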

How the data were processed

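The deposited table holds gene values of 6 RNA-seq libraries of unit signal: per the submitters' processing notes they used FastQC, cutadapt, HISAT2, SAMtools, featureCounts and DESeq2 on GRCm38, and from their steps the deposited values are reads per gene over 1 size factor per column. No source used here states versions, annotation or strand. Dividing each column by its lowest value above 0 gave whole reads (100% of values within 0.001 reads), which were used as recovered counts. The deposited table also gives the authors' log2 fold change, its standard error, a test score and p-values, of DESeq2 by the file headers; their sign, WT over E531R, was turned.

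Testing used limma 3.58.1 (R 4.3.3) with its mean-variance trend, two-sided, with no covariate, on log2 of the deposited value plus a pseudocount of 1, over genes averaging at least 10; fold changes of low genes are understated on that scale. A change common to most genes would be removed by the size factors. Intervals cover counting error only: no source mentions molecular identifiers, and without them reads are not independent molecules. Alternatives were TMM and upper-quartile rescaling, pseudocounts of 0.5 and 10, omission of the filter, a mean of at least 50, edgeR 4.0.16 and DESeq2 1.42.0 on recovered reads, array weights, the replicate number as a block, each library left out, and a per-library GC and length trend removed. EdgeR called 1393 genes higher and 1251 lower. The fits were tested on simulated data in which no library deviated with GC content, so that test does not cover the effect of WT replicate 3.

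Positions, exon lengths and GC content are from GENCODE vM21 (GRCm38), matched by symbol for 45248 rows, and promoters from RefSeq (GRCm38.p6). An exon length is the union of all annotated exons of a gene. Intervals used scipy 1.17.1 and figures matplotlib 3.10.9. Members and lists were chosen with earlier results of these data known. Named are all members, with values by library for those past the threshold with all libraries or without WT replicate 3 or under the minimum mean, and the called genes of the other lists, some of which are not reported here.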

Additional observations from a re-analysis of the deposited data

How the results depend on the processing

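With all 6 libraries 5 members were higher and 3 lower, and the same 8 genes were called under TMM and upper-quartile rescaling, both other pseudocounts, a mean of at least 50 and with the replicate number as a block (5 and 3 members; 1179 and 1062 of all genes). Same-numbered libraries deviated together with r = 0.0017, 0.19 and 0.24 for numbers 1, 2 and 3. E531R replicates 2 and 3 each correlated most with the WT library of their number, the next being WT replicate 1 (0.18 and -0.17). E531R replicate 1 correlated slightly more with WT replicate 2 (0.022), with both values near 0. These values do not settle if the numbers are pairs, and the main fit did not take them as such. Slc2a3, Pfkfb4, Bnip3l, Ddit4, Egln3 and Slc16a1 kept their calls under all 17 alternatives. Leaving out 1 library at a time gave 4 to 19 members higher and 2 to 5 lower, and over all genes 819 to 3159 higher and 746 to 2999 lower. With array weights 19 members were higher and 6 lower (3432 and 3266 of all genes), and after removal of the GC and length trend all genes had 1979 higher and 1977 lower. The cause of these shifts was not tested.

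Members near 0 changed sign, and over the fits with 1 library left out Pfkl ran from -0.051 to 0.17, Aldoc from -0.13 to 0.066, Tpi1 from -0.10 to 0.16 and Hif1a from -0.20 to 0.21. Pfkl had log2 fold changes of -0.013 under upper-quartile rescaling, -0.034 without WT replicate 1 and -0.051 without WT replicate 2. Without WT replicate 3, with array weights and with the GC trend removed, Aldoc had 0.066, 0.0047 and 0.018, Tpi1 0.16, 0.14 and 0.058, and Hif1a -0.20, -0.21 and -0.18. Tpi1 had 0.0017 without E531R replicate 2, and Slc16a3 0.014 with array weights. Pdk1 had -0.0012 under upper-quartile rescaling and -0.013 with the GC trend removed, and Ero1l then had -0.089. Depth limits Eno2, Ldhb and P4ha2, which had at most 47 reads in a group.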
